A study of Mus musculus with 20 samples.

Results

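Germ cell and meiosis genes were followed in embryoid bodies (EBs), the aggregates that pluripotent cells form when they differentiate, by RNA-seq of 4 mouse induced pluripotent stem cell (iPSC) lines. The 39 genes are germ line genes that somatic cells often silence by promoter methylation. They were taken by name from the 55573 genes of the count table. Of the 39, 38 had more than 3 counts in at least 1 of the 20 libraries, 7 did so in all 20, and Asz1, a mitochondrial anchor of the piRNA pathway, did so in none.

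WT#1-4 and WT#20D-17 are labelled wild type, and Nox4-/- #5-8 and Nox4-/- #5-23 lack Nox4, an NADPH oxidase that makes hydrogen peroxide. For WT#1-4 and the Nox4-/- lines, embryonic fibroblasts had received Oct4, Sox2, Klf4 and c-Myc from viral vectors, so these lines carry the transgenes. Before day 0 they grew with LIF on fibroblast feeder cells treated with mitomycin C. EBs were then formed in hanging drops without LIF and plated on gelatin, and each line gave 1 library on each of days 0, 3, 5, 7 and 14. The methods available here describe WT#1-4 and both Nox4-/- lines but not WT#20D-17, whose genotype comes from its sample labels and whose derivation is not given in the sources used here. Whether single lines differ because of genotype or because they are different lines cannot be told apart with 2 lines per genotype.

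Library totals ran from 20294968 counts (Nox4-/- #5-8 on day 7) to 27708023 (Nox4-/- #5-23 on day 0). A level is given in CPM (read counts scaled to equal library totals, with TMM factors), and the values of a line follow the order of days 0, 3, 5, 7 and 14. The 3 counts used here as the floor of detection came to between 0.1083 and 0.1478 CPM by library totals alone, before TMM factors. With those factors the floor shifts with the library, and 3 counts of Tdrd12 in WT#20D-17 on day 14 came to 0.154 CPM. Nox4 itself stood at 0.269, 0.882, 0.775, 0.454 and 0.148 CPM in WT#1-4 and 2.6, 7.04, 8.05, 8.96 and 2.88 CPM in WT#20D-17, and the 10 Nox4-/- libraries held at most 2 counts of it, as labelled.

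WT#20D-17 stood apart from the other lines, the second wild type line included, in the genes that mark pluripotent cells. Nanog stood at 379, 162, 44.4, 29.8 and 8.22 CPM in WT#20D-17 and reached at most 1.01 CPM in any other library. Zfp42, also called Rex1, stood at 41.3, 22.8, 11.3, 6.49 and 11.7 CPM in WT#20D-17 and had no count in the other 15. Pou5f1, which encodes Oct4 and whose counts may include the vector's copy, went the other way, with 1126, 382, 112, 81.0 and 20.8 CPM in WT#20D-17 and between 1275 and 5828 CPM elsewhere. Nanog, Zfp42 and Esrrb, defining markers of the labelled cell type, were thus at or near 0 on day 0 in WT#1-4 and in both Nox4-/- lines. The comparison of WT#1-4 with the Nox4-/- lines leaves WT#20D-17 out.

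In mammals, germ line genes are marked early in development for silence in the body's other cells. Many of their promoters are rich in CG dinucleotides, are bound by the MAX, MGA and E2F6 complexes, and gain DNA methylation when the embryo implants. Primordial germ cells, spermatogonia and meiotic cells then use them: RNA-binding proteins such as DAZL and DDX4 set germ cell fate, PIWI proteins and their Tudor domain partners make small RNAs (piRNAs) that hold down transposons, and the synaptonemal complex and meiotic cohesins pair the chromosomes. Naive pluripotent cells are known to transcribe some of these genes at a low level.

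RefSeq promoter windows of 300 bases (250 before the start and 50 after it, build GRCm38.p6) were found for 31 of the 39 genes, 40 windows in all. They held a median of 20 CG dinucleotides, from 0 to 48, against a median of 7 over all 32851 windows. CACGTG, the E-box that MAX and MGA bind, was present on either strand in the windows of 14 of the 31 genes (45.2%) and in 8.09% of all 27025 genes with a window. GCGGGAA, an E2F-type motif that E2F6 binds, was present in those of 10 genes (32.3%) against 5.29% of all genes, and 6 genes (19.4%) had both, against 0.514%. The motifs could overlap only at an end base. A match says only that these letters stand in the window. Promoter methylation was not measured.

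The 5 windows printed here are those, among the genes with CACGTG, whose levels differed most between lines. Each runs 5′ to 3′ on the gene's own strand, with CACGTG and GCGGGAA in capitals. Sycp1 encodes the transverse filament of the synaptonemal complex (chr3:102936051-102936350, minus strand) and Sycp3 its lateral element (chr10:88459337-88459636, plus strand). Mael encodes a piRNA factor of the nuage (chr1:166238695-166238994, minus strand), Ddx4 the germ cell RNA helicase (chr13:112652261-112652560, minus strand) and Tdrd9 a piRNA helicase (chr12:111971309-111971608, plus strand).
Sycp1: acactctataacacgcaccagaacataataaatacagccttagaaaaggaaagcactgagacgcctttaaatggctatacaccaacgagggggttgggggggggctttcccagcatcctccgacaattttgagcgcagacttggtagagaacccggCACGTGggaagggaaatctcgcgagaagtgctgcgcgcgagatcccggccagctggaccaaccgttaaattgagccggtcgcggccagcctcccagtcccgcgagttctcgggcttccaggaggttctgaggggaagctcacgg
Sycp3: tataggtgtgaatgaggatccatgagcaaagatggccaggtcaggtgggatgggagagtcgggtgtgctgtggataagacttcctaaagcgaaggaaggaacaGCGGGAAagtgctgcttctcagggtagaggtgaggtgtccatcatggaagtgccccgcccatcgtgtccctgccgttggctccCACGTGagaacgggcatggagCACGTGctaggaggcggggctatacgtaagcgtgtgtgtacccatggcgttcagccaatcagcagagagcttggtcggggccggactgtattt
Mael: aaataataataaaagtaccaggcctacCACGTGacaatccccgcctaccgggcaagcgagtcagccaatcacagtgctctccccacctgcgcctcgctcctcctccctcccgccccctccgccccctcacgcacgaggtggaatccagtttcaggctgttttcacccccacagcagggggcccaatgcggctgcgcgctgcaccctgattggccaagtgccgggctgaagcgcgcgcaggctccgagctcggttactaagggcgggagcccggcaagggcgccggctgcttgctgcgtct
Ddx4: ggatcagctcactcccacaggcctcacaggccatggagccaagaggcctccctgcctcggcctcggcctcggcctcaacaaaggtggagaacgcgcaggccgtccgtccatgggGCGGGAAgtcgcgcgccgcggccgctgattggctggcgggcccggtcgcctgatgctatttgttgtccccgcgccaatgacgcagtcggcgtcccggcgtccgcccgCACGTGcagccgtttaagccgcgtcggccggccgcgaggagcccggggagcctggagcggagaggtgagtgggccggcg
Tdrd9: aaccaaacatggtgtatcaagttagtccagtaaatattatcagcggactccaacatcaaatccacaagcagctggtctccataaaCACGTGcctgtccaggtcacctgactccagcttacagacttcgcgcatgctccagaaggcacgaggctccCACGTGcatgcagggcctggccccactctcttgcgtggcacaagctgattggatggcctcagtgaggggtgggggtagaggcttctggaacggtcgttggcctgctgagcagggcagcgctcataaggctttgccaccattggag
Sycp3 and Ddx4 carried both motifs, and Sycp3 and Tdrd9 carried 2 copies of CACGTG, and Tdrd9 had the fewest CG dinucleotides of the 5 windows (10, against 38 in Ddx4).

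**Figure D1:**
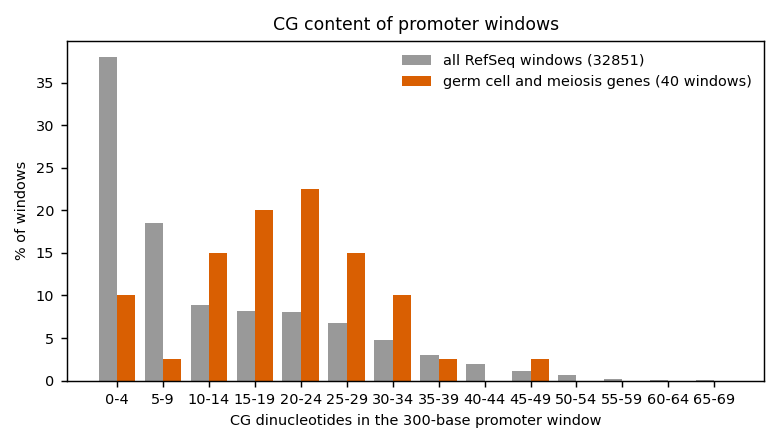
Histogram of the number of CG dinucleotides per 300-base promoter window (x axis) as a percent of windows (y axis), for the 40 windows of the germ line genes and all 32851 RefSeq windows. Windows with 0 to 4 CG dinucleotides make up 38.04% of all windows and 10.0% of those of the germ line genes.

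The first question was how many of the genes each line expressed. WT#20D-17 had more than 3 counts of 38 of the 39 genes in at least 1 library and of 25 in all 5. The numbers were 25 and 11 in WT#1-4, 20 and 12 in Nox4-/- #5-8, and 20 and 9 in Nox4-/- #5-23. Summed over the 39 genes, the level in WT#20D-17 was 395, 214, 137, 136 and 108 CPM. It was 93.8, 105, 89.5, 74.2 and 46.3 CPM in WT#1-4, 61.5, 87.1, 93.3, 103 and 168 CPM in Nox4-/- #5-8, and 28.3, 59.1, 83.7, 91.7 and 70.3 CPM in Nox4-/- #5-23. WT#20D-17 was thus the highest on days 0 to 7, with its peak on day 0, while Nox4-/- #5-8 was the highest on day 14, most of its sum being the single gene Rec8 (141 CPM). Per kilobase of transcript on day 0, the highest of the 39 in WT#20D-17 were Syce2 at 26.5 and Tex19.1 at 14.1 CPM per kb. In WT#1-4 they were Psma8 (6.63) and Tex15 (4.37), and in the Nox4-/- lines Rec8 (10.6 in #5-8 and 2.75 in #5-23) and Syce2 (3.37 and 2.50).

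**Figure D2:**
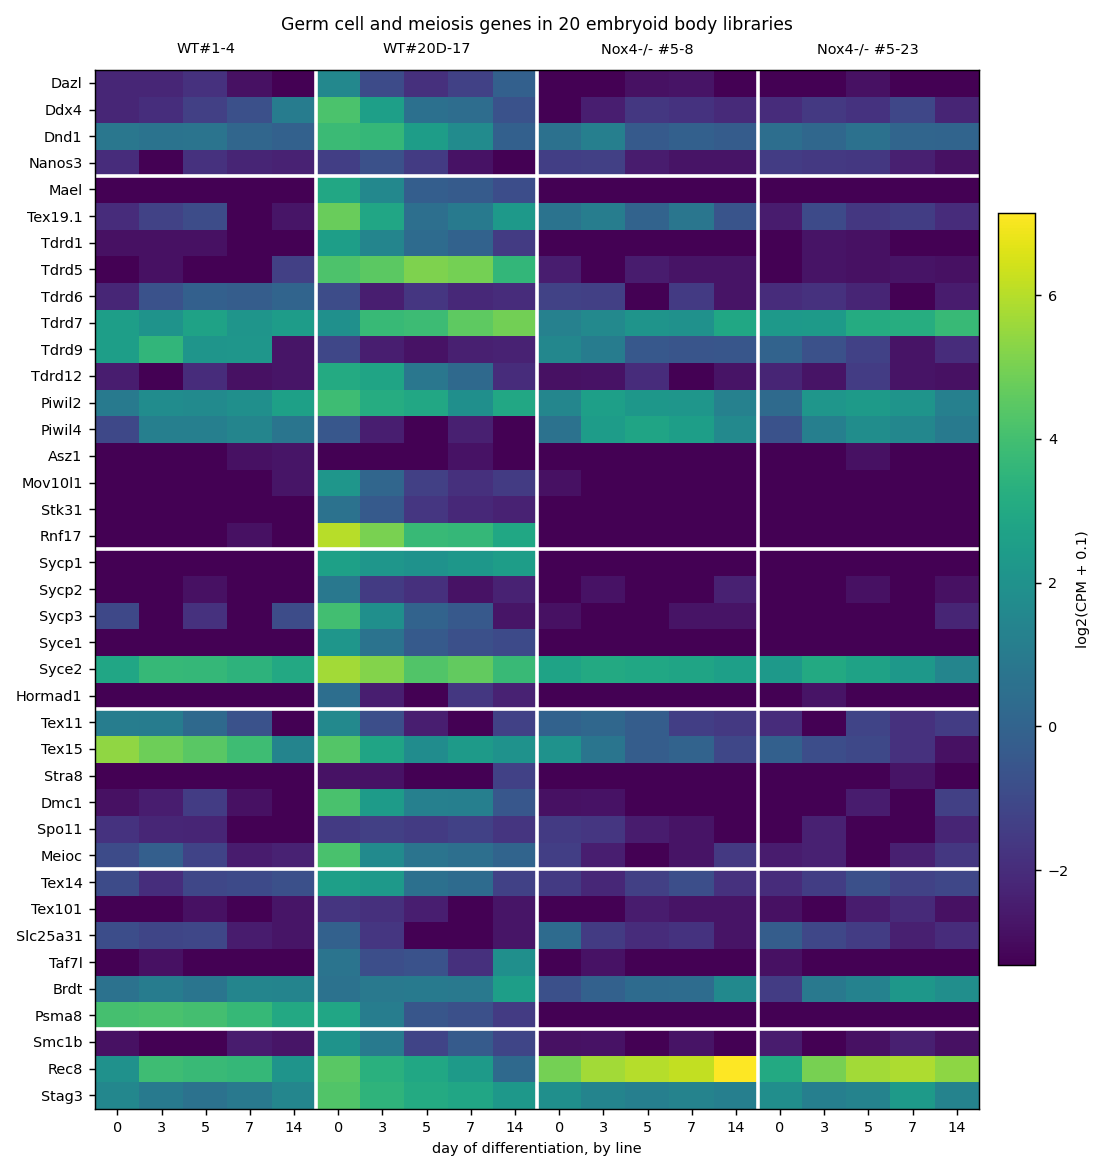
Level of the 39 genes (rows, grouped by role) in the 20 libraries (columns, by line and day) as log2(CPM + 0.1), from dark for low to bright for high. The block of WT#20D-17 is brightest on day 0 and holds rows, such as Sycp1 and Rnf17, that are dark in the other 15 libraries, while Psma8 is dark in the 10 Nox4-/- libraries alone.

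In 13 of the 39 genes (33.3%) all 5 libraries of WT#20D-17 lay above the other 15, and in none did all 5 lie below, against 6.42% and 4.32% of all genes. The 13 were Dmc1, Mael, Meioc, Mov10l1, Rnf17, Smc1b, Stk31, Syce1, Syce2, Sycp1, Taf7l, Tdrd1 and Tdrd5. Psma8 alone (2.56%) had all 10 wild type libraries above the 10 Nox4-/- libraries, against 0.845% of all genes. None had all Nox4-/- libraries above, against 0.608%.

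Lines were then compared with the edgeR exact test, in which the 5 days of a line serve as its libraries. Days are no independent replicates of a genotype, so these tests compare lines. Fold changes are given on the log2 scale with the standard error of the quasi-likelihood fit, and a gene was called when its FDR, the Benjamini-Hochberg adjusted p over all 33860 tested genes, was under 0.01. WT#20D-17 differed from WT#1-4 in 25 of the 39 genes (17.7% of all genes were called). Of these, 22 were higher in WT#20D-17 (9.97% of all genes) and 3 lower (7.77%). The Nox4-/- lines differed from WT#20D-17 in 29 of the 39 (25.9% of all genes), 27 lower in Nox4-/- (16.0%) and 2 higher (9.82%). They differed from WT#1-4 in 5 of the 39 (5.62% of all genes), 4 lower (3.97%) and 1 higher (1.65%). Nox4-/- #5-23 differed from Nox4-/- #5-8 in 1 (2.21%), which was lower in #5-23 (1.09%), and in none in the other direction (1.13%). The 5 called between WT#1-4 and Nox4-/- were Psma8, Tex15, Tdrd6 and Tdrd9 (lower in Nox4-/-) and Rec8 (higher), and the lowest FDR among the other 34 was 0.0535 (Ddx4). With the quasi-likelihood test in place of the exact test, the counts in this order were 18, 28, 3 and 0, and with day added to that test as a replicate block they were 16, 30, 5 and 6. Of all 33860 genes, 4637, 8051, 1227 and 266 were called without the block and 4443, 8639, 2747 and 2144 with it. Of the 25 genes between the wild type lines, 9 were not called in the blocked fit (FDR from 0.0133 to 0.06). Dazl, Dnd1, Hormad1, Tex14, Tdrd7 and Piwil4 were not called by the quasi-likelihood test without the block either (FDR from 0.0101 to 0.0256), and Sycp2, Syce2 and Stk31 were lost with the block alone. The first 2 comparisons share the WT#20D-17 libraries, and the comparisons of each wild type line with Nox4-/- share the Nox4-/- libraries.

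The median log2 fold change over the 39 genes was 3.12 for WT#20D-17 over WT#1-4 (0.00 over all genes), or 2.86 with the 6 genes that had no count on one side set to their bound. It was -3.43 for Nox4-/- over WT#20D-17 (-0.03), unchanged with bounds, -0.10 for Nox4-/- over WT#1-4 (0.00), also unchanged with bounds, and 0.00 for #5-23 over #5-8 (0.00). For Nox4-/- over WT#1-4 it was 0.00 once the 11 genes with 3 or fewer counts on both sides were set to 0. Since many of the genes were near 0 in the 3 other lines, a difference among those lines was often not detectable at this depth. Fibroblast markers differed in the same comparisons, with 6 of 10 lower in Nox4-/- than in WT#1-4 (60%, against 5.62% of all genes called) and 7 of 10 lower than in WT#20D-17 (70%, against 25.9%), and their part in the germ line values was not tested. In bulk RNA, fewer cells that use a gene and less RNA of it per cell cannot be told apart.

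**Figure D3:**
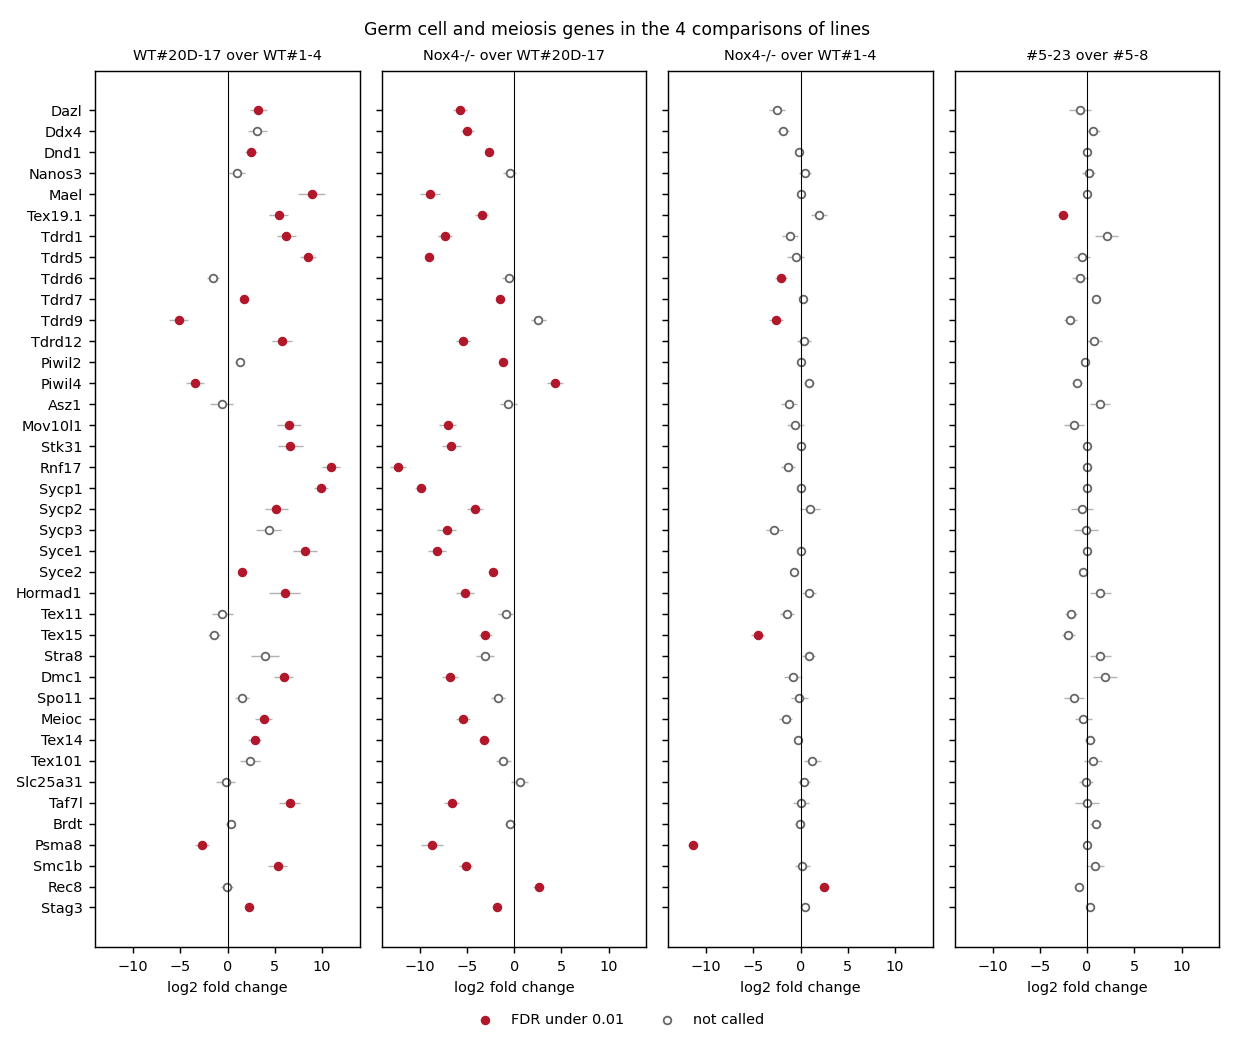
Log2 fold change (x axis) of each of the 39 genes (rows) with its standard error (bars) in the 4 comparisons of lines. Filled points passed FDR 0.01: 25, 29, 5 and 1 from left to right. Points of genes with no count on one side are fitted values and not bounds.

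Germ cell identity factors came first. Of the 4, Dazl, Ddx4 and Dnd1 were lower in Nox4-/- than in WT#20D-17, 2 of them (Dazl, Dnd1) were also higher in WT#20D-17 than in WT#1-4 (16.0% and 9.97% of all genes), and none was called between WT#1-4 and Nox4-/-. Ddx4 stood at 17.8, 5.98, 1.37, 1.24 and 0.514 CPM in WT#20D-17 and 0.115, 0.160, 0.295, 0.492 and 2.03 CPM in WT#1-4. It stood at 0, 0.0846, 0.225, 0.191 and 0.138 CPM in Nox4-/- #5-8 and 0.150, 0.231, 0.190, 0.363 and 0.112 CPM in Nox4-/- #5-23. The 2 wild type lines thus ran in opposite directions and crossed by day 14. The Nox4-/- level was below that of WT#20D-17 (log2 fold change -4.98 ± 0.69, FDR 7.02e-11). The differences between the wild type lines (3.12 ± 1.01, FDR 0.0172) and between WT#1-4 and Nox4-/- (-1.84 ± 0.63, FDR 0.0535) were not called.

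Dazl, which encodes an RNA-binding protein needed for germ cell entry, stood at 2.85, 0.427, 0.171, 0.309 and 0.822 CPM in WT#20D-17. WT#1-4 had 0.115, 0.120, 0.185, 0.0378 and 0 CPM, and the 10 Nox4-/- libraries held 3 counts of it in all. WT#20D-17 was higher than WT#1-4 (log2 fold change 3.23 ± 0.89, FDR 0.00452), and its ratio to Nox4-/- was 75.7-fold (95% counting interval 25.2 to 373) (FDR 1.19e-09). Dnd1, a partner of NANOS proteins, stood at 13.9, 12.3, 5.56, 3.22 and 0.822 CPM in WT#20D-17. It stood at 1.65, 1.48, 1.51, 0.984 and 0.841 CPM in WT#1-4, 1.41, 2.16, 0.676, 0.812 and 0.736 in Nox4-/- #5-8 and 1.28, 1.02, 1.41, 0.952 and 0.937 in Nox4-/- #5-23. WT#20D-17 was above the rest until day 7 and among them on day 14 (log2 fold change 2.47 ± 0.62, FDR 0.00175 against WT#1-4, and -2.67 ± 0.46, FDR 2.29e-07 for Nox4-/- against it). Dnd1 overlaps Wdr55 on the other strand, which reached 2485 counts against 341 for Dnd1, and whether strand was used in counting is not given in the sources used here. Nanos3, a germ cell survival factor, reached at most 0.512 CPM in any library and was not called in any of the 4 comparisons. Leaving out single days ended the calls between the wild type lines for Dazl (days 0, 3, 7 or 14, FDR up to 0.0423) and Dnd1 (days 0, 3 or 5, up to 0.0341).

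The piRNA pathway and nuage genes numbered 14. In WT#20D-17, 9 were higher and 2 lower than in WT#1-4 (9.97% and 7.77% of all genes). In Nox4-/-, 10 were lower and 1 higher than in WT#20D-17 (16.0% and 9.82% of all genes), and 2 were lower than in WT#1-4 (3.97%). Rnf17, a Tudor domain protein of the germ cell granules, stood at 65.5, 33.2, 13.3, 12.4 and 7.45 CPM in WT#20D-17 and had 1 count in the other 15 libraries together. The ratio to the 10 Nox4-/- libraries, which had none, was at least 2214-fold (FDR 2.04e-43). Mael stood at 7.60, 2.82, 0.770, 0.706 and 0.462 CPM in WT#20D-17 and had no count elsewhere, a ratio of at least 318-fold. Stk31, a Tudor domain kinase, stood at 1.42, 0.683, 0.214, 0.132 and 0.103 CPM with none elsewhere, a ratio of at least 65.5-fold. All 3 were highest on day 0 and lowest on day 14 in WT#20D-17, and no other library held more than 1 count of them.

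Tdrd5, which builds the granules where piRNAs are made, ran differently. It stood at 18.4, 22.9, 35.1, 31.2 and 12.0 CPM in WT#20D-17, highest on day 5, and had 17 counts in all the other libraries together, 6 of them in WT#1-4 on day 14. The Nox4-/- lines were lower (log2 fold change -9.02 ± 0.42, FDR 2.56e-74) and WT#20D-17 was higher than WT#1-4 (8.53 ± 0.85, FDR 1.67e-24). Tdrd1, the Tudor partner of PIWIL2, stood at 5.77, 2.65, 1.16, 0.882 and 0.257 CPM in WT#20D-17 and had 5 counts elsewhere. Mov10l1, the helicase that starts piRNA processing, stood at 4.43, 0.982, 0.30, 0.176 and 0.257 CPM with 2 counts elsewhere. Tdrd12, another helicase of the pathway, stood at 8.29, 6.83, 1.67, 1.1 and 0.154 CPM, with 0 to 7 counts in each other library. For Tdrd1, Mov10l1 and Tdrd12 the Nox4-/- lines were lower than WT#20D-17 (FDR 9.07e-15, 7.54e-10 and 4.75e-11) and WT#20D-17 was higher than WT#1-4 (3.23e-07, 6.05e-05 and 5.02e-06). On day 14 Tdrd12 was down to 3 counts in WT#20D-17 and stood at 1 in each other line.

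Tex19.1, which represses transposons in germ cells and placenta, was the one gene that the exact test called between the Nox4-/- lines. It stood at 26.5, 7.13, 1.33, 1.85 and 4.83 CPM in WT#20D-17 and 0.154, 0.321, 0.443, 0 and 0.0495 CPM in WT#1-4. It stood at 1.49, 2.07, 0.901, 1.62 and 0.552 CPM in Nox4-/- #5-8 and 0.0751, 0.416, 0.228, 0.272 and 0.150 CPM in Nox4-/- #5-23. All 5 libraries of #5-8 lay above those of #5-23 (log2 fold change -2.54 ± 0.52, FDR 0.000362), a call lost without day 5 or day 7 (FDR up to 0.0215). WT#20D-17 was higher than WT#1-4 (5.39 ± 1.01, FDR 8.51e-06) and Nox4-/- was lower than WT#20D-17 (-3.43 ± 0.71, FDR 1.45e-05), although on day 7 WT#20D-17 and #5-8 were close. WT#1-4 and Nox4-/- did not differ by the threshold (1.96 ± 0.82, FDR 0.187). With day as a replicate block, Tex15 (-1.94 ± 0.39, FDR 0.00143), Tdrd9 (-1.83 ± 0.40, FDR 0.00295), Piwil4 (-1.08 ± 0.24, FDR 0.00325) and Rec8 (-0.99 ± 0.20, FDR 0.00155) were also lower in #5-23 than in #5-8 and Tdrd7 was higher (0.99 ± 0.19, FDR 0.00106), while the quasi-likelihood test without the block called none of the 39.

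Piwil2 (MILI), a PIWI protein that binds piRNAs, was found in all 20 libraries. It stood at 14.8, 8.92, 7.58, 3.57 and 7.70 CPM in WT#20D-17 and 1.81, 3.29, 3.14, 3.63 and 6.04 CPM in WT#1-4. The Nox4-/- lines had 2.66, 5.84, 4.54, 4.44 and 2.30 CPM (#5-8) and 1.13, 4.44, 5.17, 4.13 and 2.25 CPM (#5-23). WT#20D-17 was the highest on days 0, 3, 5 and 14 and the lowest on day 7. The difference of Nox4-/- from WT#20D-17 passed (-1.23 ± 0.36, FDR 0.00525) but was lost without any one of days 0, 3, 5 and 14 or either Nox4-/- line (FDR up to 0.117), and those between the wild type lines (1.26 ± 0.43, FDR 0.0351) and between WT#1-4 and Nox4-/- (0.04 ± 0.37, FDR 1) did not pass. Piwil2 and Rnf17 lie on chromosome 14, where the median log2 ratio of WT#20D-17 over WT#1-4 was 0.49 over 604 genes, against 0.01 over all genes. The part of this in their values was not tested.

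Piwil4 and Tdrd9 were low in WT#20D-17. Piwil4 (MIWI2), the nuclear PIWI protein that directs DNA methylation, stood at 0.610, 0.0854, 0, 0.0882 and 0 CPM in WT#20D-17 and 0.384, 2.16, 2.18, 2.65 and 1.58 CPM in WT#1-4. It stood at 1.45, 5.46, 6.83, 5.68 and 2.95 CPM in Nox4-/- #5-8 and 0.526, 2.17, 3.39, 2.77 and 1.87 CPM in Nox4-/- #5-23. From day 3 on, the 3 other lines lay above WT#20D-17, with Nox4-/- higher (log2 fold change 4.31 ± 0.85, FDR 4.41e-06) and WT#20D-17 lower than WT#1-4 (-3.44 ± 0.92, FDR 0.00284), the second call being lost without day 3, 5 or 7 (FDR up to 0.0562). Tdrd9, whose window is printed above, stood at 5.80, 11.6, 4.32, 4.47 and 0.0495 CPM in WT#1-4 and 0.366, 0.0854, 0.0428, 0.0882 and 0.103 CPM in WT#20D-17. In the Nox4-/- lines it stood at 2.74, 2.03, 0.638, 0.573 and 0.598 CPM (#5-8) and 0.901, 0.508, 0.304, 0.0453 and 0.150 CPM (#5-23). Up to day 7 WT#1-4 was the highest, and on day 14 it held 1 count. WT#20D-17 was lower than WT#1-4 (log2 fold change -5.19 ± 0.98, FDR 1.37e-05). Nox4-/- was lower than WT#1-4 (-2.62 ± 0.73, FDR 0.00752), which was lost without day 3, 5 or 7 or without #5-23 (FDR up to 0.185). Nox4-/- did not differ from WT#20D-17 by the exact test (2.55 ± 0.81, FDR 0.0102), and was higher with day as a replicate block (2.53 ± 0.67, FDR 0.00436).

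Tdrd7, a Tudor protein also used in the lens, ran the other way over the days. It stood at 3.74, 13.0, 14.5, 23.0 and 30.0 CPM in WT#20D-17 and 5.69, 4.09, 6.39, 4.35 and 5.44 CPM in WT#1-4. Levels in the Nox4-/- lines were 2.29, 2.92, 4.13, 3.87 and 7.36 CPM (#5-8) and 4.88, 5.04, 8.48, 9.07 and 13.0 CPM (#5-23). WT#20D-17 was below WT#1-4 on day 0 and above all other lines from day 3 on (log2 fold change 1.70 ± 0.44, FDR 0.00343 against WT#1-4, -1.50 ± 0.41, FDR 0.0022 for Nox4-/- against it). The first call was lost without day 3, 5, 7 or 14 (FDR up to 0.0663) and the second without day 3, 5 or 7 or without #5-8 (up to 0.122). Tdrd6, a scaffold of the chromatoid body, reached at most 0.940 CPM and was lower in Nox4-/- than in WT#1-4 (-2.11 ± 0.62, FDR 0.00749), a call lost in 5 of the 7 fits that left out a day or a line (FDR up to 0.179). Asz1 had at most 1 count in any library.

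**Figure D4:**
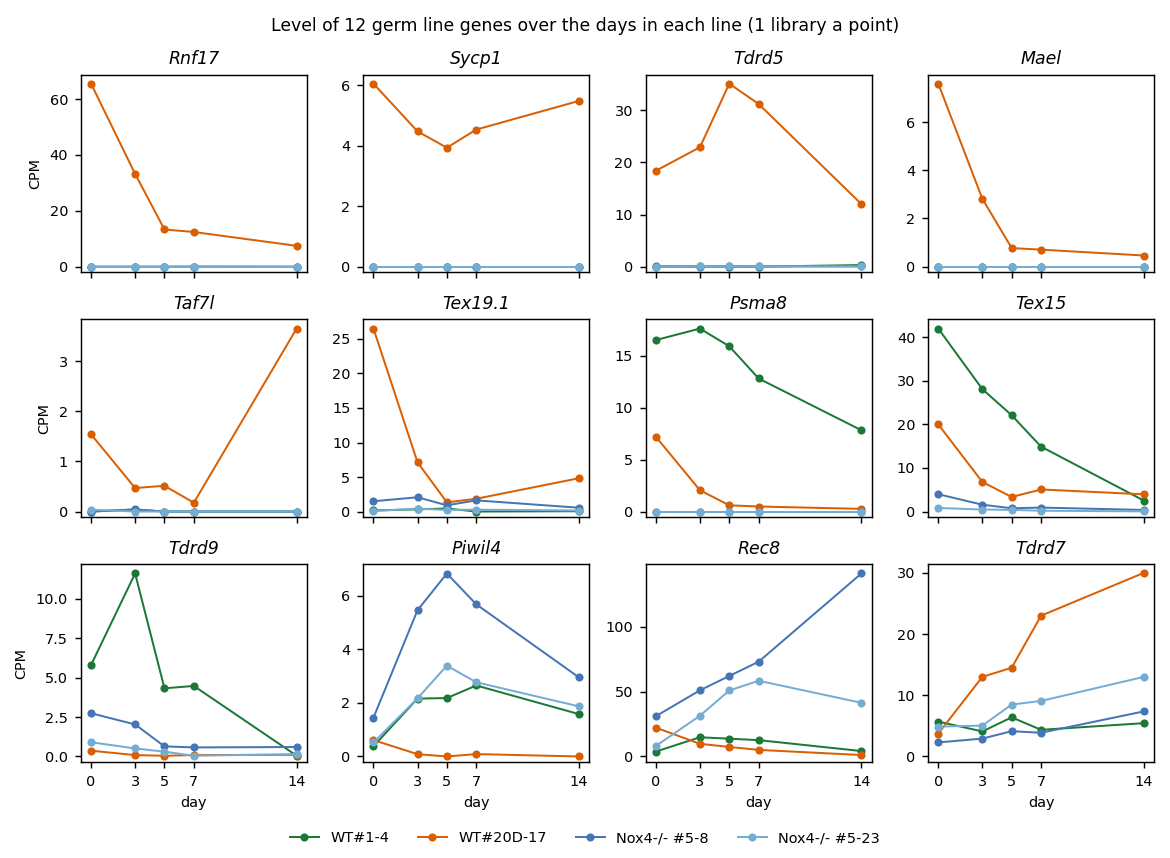
Level in CPM (y axis) of 12 of the genes over the days (x axis), 1 point per library and 1 line per iPSC line. Rnf17, Sycp1, Tdrd5, Mael and Taf7l are at or near 0 in all lines but WT#20D-17, Psma8 and Tex15 are highest in WT#1-4 up to day 7, and Rec8 is highest in Nox4-/- #5-8.

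All 6 synaptonemal complex and axis genes were lower in Nox4-/- than in WT#20D-17 (16.0% of all genes), and 5 were higher in WT#20D-17 than in WT#1-4 (9.97%). None was called between WT#1-4 and Nox4-/- or between the Nox4-/- lines. Sycp1, whose window is printed above, stood at 6.06, 4.48, 3.94, 4.54 and 5.49 CPM in WT#20D-17 and had no count in the other 15 libraries. The ratio was at least 597-fold, and the lowest of the 5 levels was on day 5. Syce1, of the central element, stood at 4.43, 1.49, 0.685, 0.485 and 0.411 CPM in WT#20D-17, again with no count elsewhere, a ratio of at least 192-fold. Sycp3 stood at 15.8, 3.59, 0.899, 0.662 and 0.0514 CPM in WT#20D-17 and 0.384, 0, 0.185, 0 and 0.445 CPM in WT#1-4, and the Nox4-/- libraries had 0 to 3 counts each. By day 14 it was lower in WT#20D-17 than in WT#1-4. Nox4-/- was lower than WT#20D-17 (log2 fold change -7.15 ± 0.98, FDR 2.22e-09) and the wild type lines did not differ by the threshold (4.35 ± 1.3, FDR 0.0139). Sycp3 overlaps Chpt1 on the other strand (at most 332 counts, against 389 for Sycp3).

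Sycp2, the partner of SYCP3, and Hormad1, which marks unpaired axes, had at most 6 counts on any later day than day 0 even in WT#20D-17. Sycp2 stood at 1.71, 0.256, 0.171, 0.0441 and 0.103 CPM there with 6 counts in the other 15 libraries, and Hormad1 at 1.26, 0.0854, 0, 0.221 and 0.103 CPM with 1. The ratio of WT#20D-17 to WT#1-4 was at least 14.6-fold for Hormad1 (FDR 0.00659) and 60.4-fold (95% counting interval 10.4 to 2429) for Sycp2 (FDR 0.00313). Against WT#1-4, Sycp2 was lost without day 0 or 3 (FDR up to 0.0437) and Hormad1 without day 0, 3, 7 or 14 (up to 0.0883). Against Nox4-/-, Sycp2 was lost without day 0 or #5-23 (up to 0.0266) and Hormad1 without day 0 or #5-8 (up to 0.0229).

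Syce2, also of the central element, was the one of the 6 found in every library. It stood at 52.2, 36.7, 19.9, 24.4 and 13.4 CPM in WT#20D-17 and 7.19, 12.7, 12.3, 10.7 and 7.87 CPM in WT#1-4. The Nox4-/- lines had 6.64, 8.13, 7.51, 6.74 and 5.98 CPM (#5-8) and 4.92, 8.04, 6.35, 4.72 and 2.62 CPM (#5-23). The WT#20D-17 libraries lay above all others (log2 fold change 1.53 ± 0.35, FDR 0.000881 against WT#1-4, lost without day 0 or day 3 with FDR up to 0.0192, and -2.27 ± 0.29, FDR 5.1e-12 for Nox4-/- against it). Syce2 overlaps Gcdh on the other strand (at most 1025 counts, against 1285 for Syce2).

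Among the 6 genes of meiotic entry and recombination, Dmc1 and Meioc were high in WT#20D-17 and Tex15 in both wild type lines. Dmc1, the recombinase of meiosis, stood at 17.3, 5.29, 2.27, 2.16 and 0.616 CPM in WT#20D-17 and had 0 to 8 counts in each other library, at most 0.30 CPM. Meioc, which holds cells in meiotic prophase, stood at 17.4, 3.12, 1.54, 1.32 and 0.924 CPM in WT#20D-17 and 0.423, 0.802, 0.332, 0.0757 and 0.0990 CPM in WT#1-4. The Nox4-/- lines had 0 to 7 counts in each library. Both were lower in Nox4-/- than in WT#20D-17 (-6.75 ± 0.86, FDR 1.2e-10 for Dmc1 and -5.39 ± 0.74, FDR 5.04e-11 for Meioc). Both were higher in WT#20D-17 than in WT#1-4 (5.95 ± 1.02, FDR 1.47e-06 and 3.80 ± 0.92, FDR 0.000863), and without day 0 the FDR of Meioc was 0.0112. Neither was called between WT#1-4 and Nox4-/- (-0.80 ± 0.97, FDR 1 and -1.59 ± 0.67, FDR 0.147).

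Tex15, which acts in recombination and piRNA-directed methylation, was one of the few genes in which WT#1-4 led. It stood at 42.0, 28.1, 22.1, 14.9 and 2.52 CPM in WT#1-4 and 20.0, 6.79, 3.34, 5.07 and 3.95 CPM in WT#20D-17. It stood at 3.98, 1.57, 0.751, 0.908 and 0.368 CPM in Nox4-/- #5-8 and 0.826, 0.462, 0.380, 0.181 and 0.0375 CPM in Nox4-/- #5-23. Except for WT#1-4 on day 14 and WT#20D-17 on days 5 and 14, which lay below #5-8 on day 0, the wild type libraries lay above the Nox4-/- ones. Nox4-/- was lower than WT#1-4 (log2 fold change -4.53 ± 0.67, FDR 1.01e-08) and than WT#20D-17 (-3.06 ± 0.67, FDR 4.48e-05), and the wild type lines did not differ by the threshold (-1.48 ± 0.63, FDR 0.103). Stra8, the retinoic acid target that starts meiosis, had 8 counts in WT#20D-17, 6 of them on day 14, and 1 elsewhere. Spo11, which cuts DNA for recombination, stayed at or below 0.309 CPM in all libraries, and Tex11, an X-linked recombination factor, at or below 2.97 CPM. None of these 3 was called in the 4 comparisons.

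Of the 6 other proteins of spermatogenic cells, Psma8 gave the clearest split by genotype. Psma8, the alpha subunit of the testis proteasome, stood at 16.5, 17.6, 15.9, 12.8 and 7.82 CPM in WT#1-4 and 7.19, 2.05, 0.599, 0.485 and 0.257 CPM in WT#20D-17, with no count in any of the 10 Nox4-/- libraries. The ratio to Nox4-/- was at least 1158-fold for WT#1-4 (FDR 2.09e-74) and at least 180.5-fold for WT#20D-17 (FDR 2.46e-13). The bound for WT#20D-17 rests largely on day 0, which held 177 of its 255 counts. WT#20D-17 was also lower than WT#1-4 (log2 fold change -2.73 ± 0.75, FDR 0.00415), a call lost without day 3, 5 or 7 (FDR up to 0.0456). Taf7l, a germ cell form of a general transcription factor, stood at 1.54, 0.469, 0.514, 0.176 and 3.65 CPM in WT#20D-17, highest on day 14, with 3 counts elsewhere, a ratio of 146-fold (95% counting interval 48.9 to 717). Tex14, of the bridges between germ cells, stood at 5.93, 4.87, 1.37, 1.15 and 0.308 CPM in WT#20D-17 and between 0.127 and 0.495 CPM in the other lines. Nox4-/- was lower than WT#20D-17 in both genes (FDR 2.12e-11 and 5.53e-08). WT#20D-17 was higher than WT#1-4 (FDR 3.91e-06 and 0.00145, the latter up to 0.0407 without day 0 or 3). Between WT#1-4 and Nox4-/- neither passed (0.02 ± 0.83, FDR 1 for Taf7l and -0.33 ± 0.41, FDR 0.933 for Tex14). Tex101, a sperm membrane protein, reached at most 0.203 CPM. Slc25a31 (a germ cell ADP/ATP carrier) and Brdt (a testis bromodomain protein) did not separate the lines in any of the 4 comparisons.

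Of the 3 meiotic cohesin genes, Rec8 ran differently from Smc1b and Stag3. Rec8, the meiotic kleisin, was the one member higher in Nox4-/- than in both wild type lines. It stood at 31.1, 51.0, 62.1, 73.1 and 141 CPM in Nox4-/- #5-8 and 8.07, 31.4, 50.9, 58.4 and 41.4 CPM in Nox4-/- #5-23. It stood at 3.80, 14.8, 13.7, 12.6 and 4.16 CPM in WT#1-4 and 22.2, 9.77, 7.32, 5.07 and 1.08 CPM in WT#20D-17. From day 3 on, all Nox4-/- libraries lay above all wild type ones, but on day 0 #5-23 was below WT#20D-17. Nox4-/- was higher than WT#1-4 (log2 fold change 2.48 ± 0.51, FDR 0.000115) and than WT#20D-17 (2.58 ± 0.60, FDR 0.000186). The second call was lost without #5-8 (FDR 0.01). Rec8 also lies on chromosome 14.

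Smc1b, the meiotic form of an SMC subunit, stood at 4.06, 1.84, 0.342, 0.706 and 0.359 CPM in WT#20D-17 and had 0 to 2 counts in each other library. Stag3, the meiotic SA subunit, stood at 19.6, 11.2, 8.43, 7.19 and 4.62 CPM in WT#20D-17 and 2.77, 1.88, 1.44, 1.78 and 2.72 CPM in WT#1-4. In Nox4-/- the levels of Stag3 were 3.58, 2.54, 2.18, 2.48 and 2.16 CPM (#5-8) and 3.49, 2.22, 2.43, 5.12 and 2.44 CPM (#5-23). Both genes were lower in Nox4-/- than in WT#20D-17 (-5.13 ± 0.67, FDR 4.41e-11 for Smc1b and -1.86 ± 0.31, FDR 2.98e-07 for Stag3). Both were higher in WT#20D-17 than in WT#1-4 (5.29 ± 0.98, FDR 9.03e-06 and 2.27 ± 0.43, FDR 2.01e-05). WT#1-4 and Nox4-/- did not differ by the threshold in Smc1b (0.18 ± 0.80, FDR 1) or Stag3 (0.43 ± 0.30, FDR 0.63). Stag3 overlapped at one point, since its day 14 level in WT#20D-17 was below the day 7 level of #5-23. Stag3 and Brdt lie on chromosome 5, where the median log2 ratio of #5-23 over #5-8 was 0.55, against 0.00 over all genes. For Nox4-/- over WT#1-4 it was 0.30 on that chromosome, against 0.01 over all genes. The part of this in their values was not tested.

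With the line as the unit, 2 per genotype, no gene was called by the edgeR quasi-likelihood test on counts summed per line (0 of 20230 genes, 0%). Of the 39 genes, 24 had enough counts to be tested and none was called. At an unadjusted p under 0.05 the test gave 1630 genes, 7 of them among the 24. DESeq2 called 730 genes, 4 of them among the 24, and the exact test on line sums 124 and 1. The median log2 fold change of the 24 was -1.69 (0.00 over all genes), 21 below 0 and 3 above. The 2 wild type lines did not share this equally. Over the 39 genes, the median of Nox4-/- over WT#20D-17 was -3.43, with 35 below 0 and 4 above. Over WT#1-4 it was -0.10, with 20 below and 15 above. Without WT#1-4 the test gave 178 genes, 1 of them among the 39, but WT#20D-17 is then the only wild type sum and is assumed to vary as the 2 Nox4-/- sums do.

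The course over the days was the next question. In WT#20D-17, 31 of the 38 genes above 3 counts were highest on day 0 (81.6%, against 31.4% of all genes above 3 counts in that line), and 34 were lower on day 14 than on day 0 (89.5%, against 50.6%). In WT#1-4, 6 of 25 were highest on day 0 (24%, against 25.7%), in Nox4-/- #5-8 7 of 20 (35%, against 26.5%) and in Nox4-/- #5-23 4 of 20 (20%, against 30.5%). Lower on day 14 than on day 0 were 15 of 25 in WT#1-4 (60%, against 49.7%) and 14 of 20 in #5-8 (70%, against 49.6%). In #5-23 they were 10 of 20 (50%, against 47.5%). The median count per gene in WT#20D-17 was 109, 48, 18, 16 and 7.

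Across the 4 lines, with line as a block, the day test called 2 of the 28 genes tested (18% of all 17827 genes), and the contrast of day 14 with day 0 called 5 (28.8%), 3 lower (14%) and 2 higher (14.8%). Tex15 fell over the days in each line (log2 fold change of day 14 over day 0 -3.12 ± 0.44, FDR 4.96e-05). Slc25a31 was highest on day 0 in all 4 lines and fell as well (-3.42 ± 0.74, FDR 0.00148). It stood at 0.854, 0.213, 0, 0 and 0.0514 CPM in WT#20D-17 and 0.461, 0.361, 0.369, 0.0757 and 0.0495 CPM in WT#1-4. For the Nox4-/- lines the levels were 1.17, 0.254, 0.150, 0.191 and 0.0460 CPM (#5-8) and 0.751, 0.370, 0.266, 0.0907 and 0.150 CPM (#5-23). The other lower call, Tdrd1 (-3.86 ± 0.91, FDR 0.00451), says nothing of the other lines, since it entered the fit through WT#20D-17, with 142 counts there on day 0 and 5 on day 14, and had at most 1 in any library of the others. Without WT#20D-17, 16 of the 28 were left to test and the contrast called 5, 2 lower and 3 higher. In the same fit 5840 of all 17023 genes tested were called, 2708 lower and 3132 higher. Brdt, at 0.263 to 1.46 CPM on day 0 and 2.52 to 5.75 CPM on day 14, was higher on day 14 (2.11 ± 0.47, FDR 0.00195), as was Tdrd7 (1.41 ± 0.36, FDR 0.00473). In the day test, Tex15 was lost without either Nox4-/- line or without day 0 (FDR up to 0.0507), and Slc25a31 without day 7 or 14 or without any one line but WT#20D-17 (up to 0.0535). In the contrast, Brdt was lost without #5-8 (FDR 0.0287), Tdrd1 without WT#1-4 or #5-23 (up to 0.0262), Slc25a31 without either Nox4-/- line (up to 0.02) and Tdrd7 in 5 fits, the one without WT#20D-17 among them (up to 0.0486).

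Whether the course differed between genotypes was tested with a genotype by day term. Of the 39 genes, 32 passed the filter, but Mael, Sycp1, Syce1, Stk31, Rnf17 and Psma8 had no count in any Nox4-/- library and so no Nox4-/- course to compare. Of the other 26, several were also near 0 there, and none was called (2 of 19240 genes, 0.0104%). Rec8 and Meioc had an unadjusted p under 0.05 (1393 of all genes). DESeq2's likelihood ratio test called 191 genes and none of the 39. Rec8, higher on day 14 than on day 0 in both Nox4-/- lines and slightly so in WT#1-4 (3.80 and 4.16 CPM), and lower in WT#20D-17, had an FDR of 0.577 in this test.

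Other genes of the same pathways, listed apart from the 39, were read in the same way. Of 30 further meiosis genes, 6 were higher and 1 lower in WT#20D-17 than in WT#1-4 (23.3%, near the 17.7% of all genes), and 14 were lower and 3 higher in Nox4-/- than in WT#20D-17 (56.7%, against 25.9%). Ankrd31, which helps place meiotic DNA breaks, stood at 60.7, 25.5, 8.69, 8.78 and 0.873 CPM in WT#20D-17 with 1 count elsewhere, and Ccnb1ip1 (HEI10), a crossover factor that lies on chromosome 14, at 25.4, 12.2, 4.54, 3.35 and 3.54 CPM with 1 count elsewhere. Against WT#1-4, 2 of the 30 were called (6.67%, against 5.62%). Rec114 (-2.65 ± 0.68, FDR 0.000388) and Terb1 (-2.56 ± 0.69, FDR 0.00362) were lower in Nox4-/- than in WT#1-4, both at low levels. Trip13, an AAA ATPase that also serves the mitotic checkpoint, was lower on day 14 than on day 0 (-2.12 ± 0.30, FDR 5.23e-05). Of 17 tested, 5 were lower and 1 higher in that contrast (35.3%, against 28.8% of all genes). The day test, which has no direction of its own, called 4 of the 17 (23.5%, against 18%).

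Of 12 further piRNA genes, 2 were higher in WT#20D-17 than in WT#1-4, Gpat2 (7.11 ± 0.90, FDR 2.75e-11) and Pnldc1 (3.96 ± 0.90, FDR 0.000255), the piRNA trimmer (16.7%, no more than the 17.7% of all genes). In Nox4-/-, 4 were lower and 1 higher than in WT#20D-17 (41.7%, against 25.9%). Against WT#1-4, Henmt1, the piRNA methyltransferase, was lower (-2.40 ± 0.71, FDR 0.00707) and Ddx25 higher (1.04 ± 0.27, FDR 0.00988), 2 of the 12 (16.7%, against 5.62%). Between the Nox4-/- lines, 2 were higher in #5-23 (16.7%, against 2.21% of all genes), Pld6 (1.31 ± 0.29, FDR 0.00503) and Tdrkh (1.11 ± 0.19, FDR 0.00018), both of the mitochondrial surface. Of 23 further germ line genes known to respond to DNA methylation, 20 had a count. Of these, 8 were higher in WT#20D-17 than in WT#1-4 (40%, against 17.7% of all genes) and 11 lower in Nox4-/- than in WT#20D-17 (55%, against 25.9%), and none in the opposite direction. Zfp42, which is also on the list of pluripotent cell genes, is counted in both numbers. Rpl10l, a testis ribosomal protein gene, stood at 6.83, 1.58, 0.257, 0.529 and 0.0514 CPM in WT#20D-17 with no count elsewhere, and Fmr1nb, a cancer-testis gene, at 11.3, 9.82, 5.61, 6.49 and 4.52 CPM with 1. Of the 20, Xlr3a alone was called between WT#1-4 and Nox4-/- (5%, near the 5.62% of all genes), higher in Nox4-/- (3.83 ± 0.82, FDR 0.000238), and Sohlh1 alone between the Nox4-/- lines (5%, against 2.21%), lower in #5-23 (-3.51 ± 0.90, FDR 0.00502).

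The list of 30 repressors and methylation factors of germ line genes held a few genes that were high in WT#20D-17. Dnmt3b, a de novo DNA methyltransferase, stood at 719, 459.5, 366, 278 and 41.9 CPM in WT#20D-17 and between 2.02 and 17.2 CPM elsewhere (5.08 ± 0.69, FDR 9.84e-11 for WT#20D-17 over WT#1-4). Dnmt3l, its cofactor, stood at 135, 62.0, 20.5, 12.9 and 12.7 CPM in WT#20D-17 and had 8 counts in the other libraries together. Tet1, a 5-methylcytosine dioxygenase, stood at 243, 97.0, 57.2, 54.8 and 34.6 CPM in WT#20D-17 and between 4.11 and 29.0 CPM elsewhere (2.57 ± 0.55, FDR 0.000114). In all, 5 of the 30 were higher and 1 lower in WT#20D-17 than in WT#1-4 (20%, near the 17.7% of all genes), with a list median of 0.09. In Nox4-/-, 7 were lower and 3 higher than in WT#20D-17 (33.3%, against 25.9%, median -0.17). None was called between WT#1-4 and Nox4-/- or between the Nox4-/- lines. On day 14, 19 were lower than on day 0 and 0 higher (63.3%, against 28.8% of all genes). Among them were Hells, a chromatin remodeller that assists methylation (-2.96 ± 0.30, FDR 3.77e-06), and Uhrf1, which maintains it (-2.11 ± 0.24, FDR 8.13e-06). The day test, which has no direction of its own, called 16 of the 30 (53.3%, against 18%).

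Markers of the cells that such libraries could hold were read beside these values. Of the 10 pluripotent cell genes, the 9 other than Pou5f1 summed to 2643 CPM on day 0 in WT#20D-17 and to at most 205.9 CPM in any other line, and 8 of the 10 were higher and 1 lower in WT#20D-17 than in WT#1-4 (90%, against 17.7% of all genes). Against Nox4-/-, WT#20D-17 had 8 higher and 2 lower (100%, against 25.9%), and WT#1-4 had 1 higher (10%, near the 5.62% of all genes), Utf1, a chromatin factor of pluripotent cells (-8.62 ± 0.51, FDR 2.58e-59 for Nox4-/- over WT#1-4). Of the 10 primordial germ cell markers, 4 are among the 39. Dppa3 (Stella) stood at 8.78, 14.5, 5.48, 3.09 and 0.308 CPM in WT#20D-17 with 1 count elsewhere, and Prdm14 at 7.72, 4.65, 2.18, 0.794 and 0.514 CPM with 2. Of the 10, 6 were higher in WT#20D-17 than in WT#1-4 (60%, against 17.7% of all genes, median log2 fold change 3.18), and in Nox4-/- 8 were lower and 1 higher than in WT#20D-17 (90%, against 25.9%). Ifitm3, an early germ cell membrane protein that other cells also use, was higher in Nox4-/- than in WT#1-4 (0.74 ± 0.17, FDR 0.00403) and was the most abundant of the 10 on day 0 in every line. The summed level of the 10 was 171.4 CPM on day 0 in WT#20D-17 and 91.8 to 143.8 in the other lines, and on day 14 it was 371.0 CPM in WT#20D-17, when 284.5 CPM came from Kit. Kit was also the 1 of 9 tested that was called for genotype by day (11.1%, against 0.0104% of all genes). Its FDR over all the day terms was 0.00204, and the day 14 term was -5.49 ± 0.39. Between the Nox4-/- lines Kit was the 1 of the 10 called (10%, against 2.21%), higher in #5-23 (2.12 ± 0.39, FDR 9.39e-05). Naive pluripotent cells also use Dppa3, Prdm14 and Tfap2c, so these markers do not separate these cell types.

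Markers of later germ cells were low. The 10 spermatid markers summed to at most 1.70 CPM in any library, nearly all of it Zpbp, and Tnp1 and Akap4 had no count in any library. The 10 oocyte markers summed to at most 1.87 CPM in every library but WT#20D-17 on day 14, which had 4.93 CPM, 4.62 of it Gdf9. Of the 8 oocyte markers with a count, 4 were lower in Nox4-/- than in WT#20D-17 (50%, against 25.9% of all genes), namely Figla (-4.67 ± 1.04, FDR 0.000762), Nlrp5, Gdf9 and Npm2, and none was called in the other comparisons of lines. No spermatid marker was called in any of them. Fibroblast markers were the least in WT#20D-17 on day 0 among the day 0 libraries (26.7 CPM, against 419.4 in WT#1-4, mostly Fbn1, and 49.1 and 34.7 in the Nox4-/- lines) and reached 2682 and 2979 CPM there on days 7 and 14. In Nox4-/-, 6 of the 10 were lower than in WT#1-4 (60%, against 5.62% of all genes, median log2 fold change -2.59) and 7 lower than in WT#20D-17 (70%, against 25.9%, median -5.90), while WT#20D-17 had 6 higher and 1 lower than WT#1-4 (70%, against 17.7%). Col1a2, a collagen gene, was lower in Nox4-/- than in WT#1-4 (-3.60 ± 0.45, FDR 5.88e-13). The 8 markers of 2-cell-like cells, a rare state in naive cultures, summed to at most 2.46 CPM. Of these, Zscan4c, Zscan4d and Zscan4f were higher in WT#20D-17 than in WT#1-4 (37.5%, against 17.7% of all genes) and lower in Nox4-/- than in WT#20D-17 (37.5%, against 25.9%, -6.31 ± 1.05, FDR 1.12e-07 for Zscan4c), and none went the other way. The part of any of these cell types in the germ line values was not tested.

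**Figure D5:**
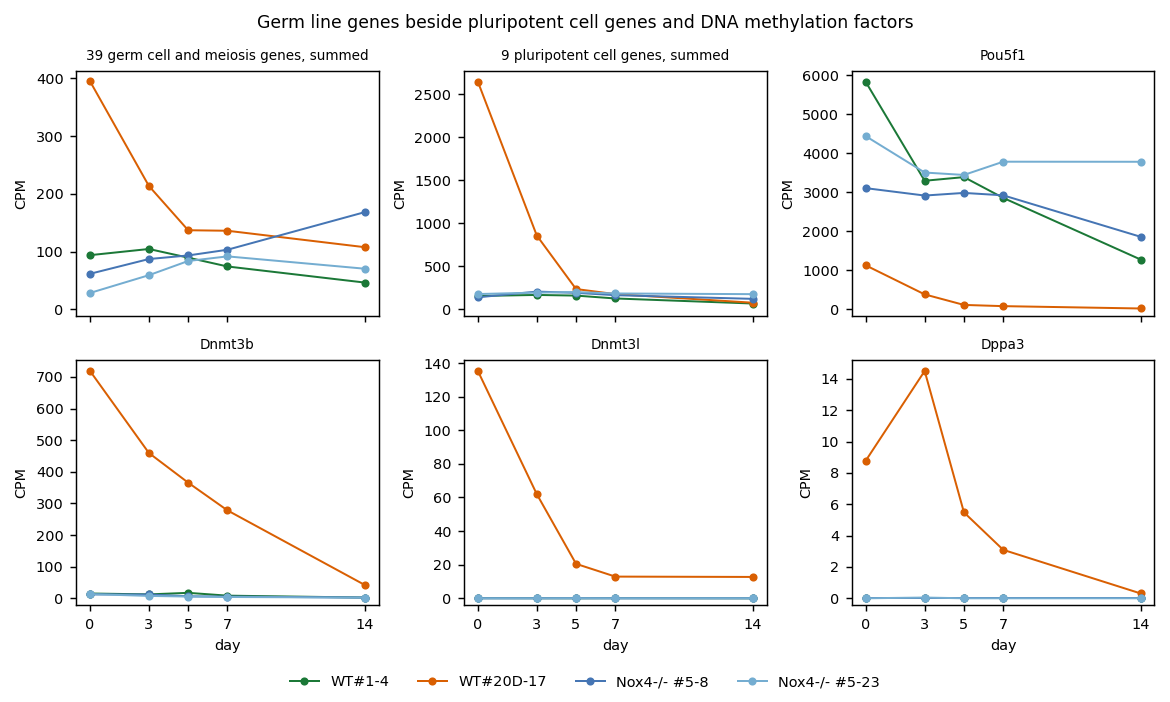
Level in CPM (y axis) over the days (x axis) of the 39 germ line genes summed, 9 pluripotent cell genes summed without Pou5f1, Pou5f1, Dnmt3b, Dnmt3l and Dppa3, 1 point per library. All but Pou5f1 are highest in WT#20D-17 on day 0, or for Dppa3 on day 3 (14.5 CPM), and Pou5f1 is lowest in that line on each day.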

How the data were processed

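Poly(A) RNA libraries (stranded kit, paired-end reads) were trimmed by the authors with fastx_toolkit, mapped to mm10/GRCm38 with STAR 2.6.0c and summarised per gene with RSEM 1.3.1. The deposited values are RSEM expected counts with no normalization, of which 9.92% were not whole. RSEM shares reads among genes with similar sequence. Whether strand was used is not given in the sources used here. The protocol text in the labels gives an earlier last day than the sample titles, and day 14 of the titles was used.

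Expected counts were rounded. Symbols came from GENCODE M21 (55480 of 55573 identifiers matched). R 4.3.3, edgeR 4.0.16 and DESeq2 1.42.0 were used, with the exact test after TMM on the 33860 genes with a nonzero value in any of the 20 libraries for comparisons of lines, as in the study's methods, and quasi-likelihood fits with filterByExpr for line sums, day and genotype by day. The threshold was FDR 0.01, each fit covered all genes past its filter, and the fitting scripts were tested on simulated data. Standard errors come from the quasi-likelihood fit of the same contrast. A ratio to libraries with 0 counts was taken against 3 counts over that group and is a lower bound. With 1 to 3 counts an exact 95% interval is given, and both cover counting error only. Nothing says that the days of a line came from separate cultures, so p-values measure the spread between these libraries. The labels name the line of each library. The log2 difference between the lines of a genotype correlated between days over 19240 genes (mean r 0.77, from 0.564 to 0.898, for the wild type lines and 0.491, from 0.329 to 0.688, for Nox4-/-), and day was tested with line as a block.

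A gene was given in every library, low libraries by range, when it was called in a line comparison or the day test and reached 1 CPM (31 of 39), otherwise by range. From each other list at most 4 genes with the largest fold changes among those called in a test are named, and the marker genes named beyond these were chosen after their values were seen. The 39 genes and all lists were chosen with earlier results of these data known. Alternatives were other tests, DESeq2 size factors, upper quartile scaling, filters, blocks and leaving out each day or line.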

Additional observations from a re-analysis of the deposited data

How the results depend on the processing

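No alternative reversed the direction of a call among the 39 genes. For WT#20D-17 against Nox4-/-, where 29 of them were called, filterByExpr gave 17 of the 19 it left to test, and leaving out 1 day or line gave 26 to 28. Of all genes, with 8755 called, filterByExpr gave 6901 of 16469 tested, and leaving out 1 day or line gave 6774 to 8778. For WT#20D-17 against WT#1-4, with 25 called, filterByExpr gave 14 of 22 tested, the quasi-likelihood test 18, the same with day as a replicate block 16, and leaving out 1 day 16 (without day 3) to 25. Of all genes, with 6005 called here, the filter gave 4791 of 16096 tested, the quasi-likelihood test 4637 and the blocked test 4443. Leaving out 1 day gave 4228 to 6372 of all genes. For WT#1-4 against Nox4-/-, with 5 called, the quasi-likelihood test gave 3 (and 1227 of all genes, against 1903), and leaving out 1 day or line gave 3 to 5 (and 1111 to 1961 of all genes). Between the Nox4-/- lines, with 1 called and 749 of all genes, the quasi-likelihood test gave 0 and 266, the fit with day as a replicate block 6 and 2144, DESeq2 1171 of all genes, and leaving out 1 day 0 to 1 and 271 (without day 5) to 950. With the line as the unit, where 0 genes were called, DESeq2 gave 730 and 4 of the 39, the exact test 124 and 1, and leaving out 1 line 0 to 178 and 0 to 1. For the day test, with 2 of the 39 and 3203 of all genes, the fit with no replicate block gave 0 and 419, DESeq2's likelihood ratio test 4 and 5095, and leaving out 1 line or day 0 to 3 and 623 (without #5-23) to 3979. For day 14 against day 0, with 5 and 5143, the fit with no replicate block gave 1 and 1709, and leaving out 1 line or day 2 to 5 and 2566 (without #5-23) to 5840. For genotype by day, with 0 and 2, no replicate block gave 0 of all genes, no filter 5, the likelihood ratio test 191, and leaving out 1 line 0 to 2 and 0 to 666 (without WT#1-4). The causes of these shifts were not tested. The filters left fewer genes to test. The calls of single genes held in 344 of 416 refits without 1 day or line and in 339 of 365 under the other settings. The promoter window was not varied.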
